A study of Mus musculus with 8 samples.

Results

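The leukaemia fusion NUP98-HOXA9 was compared with its deletion mutant delFG1 by the expression of every gene measured on the arrays. The comparison took the 2 arrays titled as delFG1 and the 2 titled as the full-length fusion, 4 of the 8 arrays of the series. All 21789 probe sets with a single gene symbol entered it, covering 19938 symbols. The series asks which genes depend on the NUP98 moiety of the fusion. All groups were mouse cells of the C57BL/6 strain, and each group carried either NUP98-HOXA9 in full length, delFG1, a further deletion mutant called delFG2, or an empty vector. The arrays of each group are numbered 1 and 2. Not given in the sources used here are the kind of cell, the residues missing from delFG1, the species of the fusion cDNA and its promoter. The labels do not state whether equally treated arrays stem from independent cultures, and p-values therefore reflect only how these samples varied, possibly for technical reasons.

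NUP98 is a nuclear pore protein whose N-terminal part is made of phenylalanine-glycine (FG) repeats. In NUP98-HOXA9, which arises from a translocation in myeloid leukaemia, that part is joined to the C-terminal part of HOXA9 with its DNA-binding homeodomain. HOX proteins bind DNA together with partners of the TALE homeobox class, the PBX and MEIS proteins. In blood formation Hoxa genes and Meis1 are active in immature cells and fall silent on differentiation, and the histone methyltransferase MLL maintains their transcription.

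Values are log2(intensity + 1) of the deposited intensities, and every difference is delFG1 minus full length on that scale unless another contrast is named. Differences were tested with limma, with the array number as a block, and Benjamini-Hochberg adjusted p-values had to be under 0.05. Median intensity lay between 80.7 and 83.2 on all 8 arrays. The full-length and delFG1 arrays were alike over the whole table: same-numbered arrays correlated across genes with r = 0.997 for number 1 and 0.999 for number 2, against 0.996 between the 2 arrays of either group. Probe sets at least 2-fold apart came to 19 higher and 11 lower with delFG1 for array number 1, and to 4 higher and 5 lower for number 2. In both pairs 4 probe sets were at least 2-fold higher and 3 at least 2-fold lower. The array number itself was associated with 2435 probe sets, or 11.2% of those tested.

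With delFG1, 12 genes were lower and 5 higher than with the full-length fusion. The lower genes were Eya1, Pbx3, Hoxa9, Calcrl, Hoxb5, Gm5662, Csn1s1, Meis1, Igfbp7, Mef2c, Rasgrp3 and Epha3. The higher genes were Tmem47, Csn2, Glyat, Tox and Thbs4. Together they were 0.078% of the probe sets tested by limma, 0.0551% lower and 0.0229% higher, and 8 of the 17 differed at least 2-fold. Without the block, limma's call held for Eya1 and Pbx3 and for no higher gene, 0.00918% and 0.0% of the probe sets, while 451 probe sets had an unadjusted p under 0.05, against 886 with it. After centring each array on its median, limma called 10 higher and 15 lower, and with quantile normalisation 4 higher and 12 lower.

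Single arrays moved these counts. Limma called 0 higher and 5 lower without the full-length array numbered 1, 2 and 5 without the full-length array numbered 2, and 3 and 4 without the delFG1 array numbered 1. Without the delFG1 array numbered 2 it called 25 higher and 15 lower. Leaving out an empty-vector array, which shares only the estimate of the spread and of the number effect, gave 16 higher and 27 lower (number 1) or 16 and 28 (number 2). Leaving out a delFG2 array gave 4 higher and 8 lower (number 1) or 4 and 7 (number 2). Eya1 and Pbx3 were called in every one of these fits.

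Other settings ended calls too. Without the intensity trend limma no longer called Csn1s1 (adjusted p = 0.124), Epha3 (0.224), Gm5662 (0.202), Hoxb5 (0.0507), Igfbp7 (0.0879) and Mef2c (0.0955) among the lower genes, nor Thbs4 (0.202), Tox (0.0695), Csn2 and Tmem47 among the higher. With all deposited probe sets in the fit it lost Epha3 (0.0874), Igfbp7 (0.0575), Mef2c (0.0667), Rasgrp3 (0.0712), Thbs4 (0.104) and Csn2, and with quantile normalisation Thbs4 (0.0784).

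**Figure D1:**
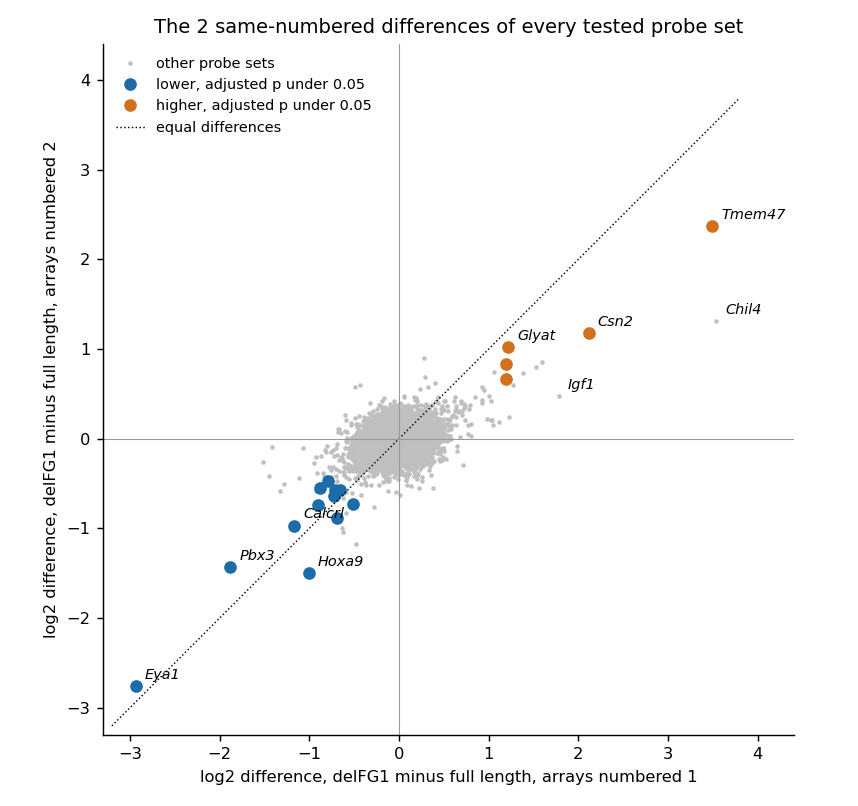
Each point is a probe set: the log2 difference delFG1 minus full length between the arrays numbered 1 (horizontal) and numbered 2 (vertical), with the 12 lower genes in blue, the 5 higher genes in orange and the dotted line marking equal differences. Most probe sets form a cloud around 0, Eya1 lies apart at the lower left, near -2.94 and -2.76, and all 5 higher genes lie below the dotted line, with the larger difference in the arrays numbered 1.

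Eya1, a transcriptional coactivator and protein phosphatase that acts with homeobox proteins of the sine oculis type, had the largest fall. It read 9.06 and 8.98 on the full-length arrays numbered 1 and 2, and 6.12 and 6.22 on the delFG1 arrays. Both delFG1 values lay below both empty-vector values, 6.43 and 6.76, and the full-length arrays stood apart from the other groups. The difference was -2.85 (SE 0.12, 95% interval -3.11 to -2.59, n = 2 arrays a group), a level 7.20-fold lower (limma adjusted p = 1.89e-06). Without the block limma's adjusted p was 0.000196, and over all alternatives it ranged from 1.65e-07 to 0.000513.

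No other measured gene of its network passed. Of 11 measured genes of the network around the EYA proteins, their homeobox partners and the DACH co-repressors, Eya1 alone passed, and the list's median difference was -0.00, as over all genes (0.00). Eya2, Eya3 and Eya4, the other Eya family members, differed by -0.02, -0.00 and -0.05, Eya3 turning positive with median-centred arrays. Six4, a homeobox partner of the EYA proteins, had a difference of -0.29 and Dach1, a co-repressor of the same network, one of 0.52. Neither passed limma's threshold, at adjusted p = 1.0 for Six4 and 0.296 for Dach1.

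Pbx3, a TALE homeobox cofactor that binds DNA with HOX proteins, had the next largest fall. Its full-length arrays read 10.63 and 10.24 and its delFG1 arrays 8.75 and 8.81. The full-length and delFG1 arrays did not overlap, and the delFG1 arrays were close to the empty-vector values of 8.75 and 8.65. The difference was -1.66 (SE 0.11, 95% interval -1.89 to -1.42), a level 3.15-fold lower (limma adjusted p = 0.000119, and 0.0104 without the block). Over the alternatives its adjusted p ran from 1.25e-05 to 0.0106.

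Meis1, the TALE cofactor most often found with HOXA9 in leukaemia, read 7.84 and 7.30 on the full-length arrays and 6.93 and 6.57 on the delFG1 arrays. The arrays numbered 2 were lower in both groups, and in the empty vector too (7.02 and 6.53), and the same-numbered differences were -0.91 and -0.74. The difference was -0.82 (SE 0.10, 95% interval -1.05 to -0.60), a level 1.77-fold lower (limma adjusted p = 0.0143). Without the block the call was lost (limma adjusted p = 1.0, range over alternatives 0.00409 to 1.0). It was also lost without the full-length array numbered 1 (-0.76) or 2 (-0.88) and without the delFG1 array numbered 1 (-0.77).

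Pbx3 and Meis1 were the only called members among 10 measured TALE genes, whose median difference was -0.06. Pbx2, a close relative of Pbx3, differed by -0.02, and Meis2 by -0.02. Pknox1, a MEIS-related TALE factor, had a difference of 0.32 that did not pass (limma adjusted p = 0.966). No member of the list was called higher.

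The Hoxa genes set position along the body axis and act in blood progenitors, and of 10 measured Hoxa9 alone passed. It read 9.41 and 9.43 on the full-length arrays and 8.40 and 7.93 on the delFG1 arrays. The delFG1 values lay between the full-length values and those of the empty vector, 7.56 and 7.34, without overlap. The difference was -1.25 (SE 0.13, 95% interval -1.53 to -0.97), a level 2.38-fold lower (limma adjusted p = 0.00532). The call was lost without the block (limma adjusted p = 0.311, range over alternatives 0.000587 to 0.311) and without the full-length array numbered 2, where the difference was -1.05. Endogenous Hoxa9 RNA and RNA of the introduced fusion cannot be told apart in this probe set, since the positions of its probes and the species of the fusion cDNA are not given here.

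Hoxa5, Hoxa6 and Hoxa7 had differences of -0.83, -0.83 and -0.82, and none passed limma's threshold (adjusted p = 0.0502, 0.199 and 0.0664). Hoxa7 read 9.01 and 9.0 on the full-length arrays, 8.37 and 8.0 on the delFG1 arrays and 6.79 and 6.93 on the empty-vector arrays. Hoxa5 read 7.60 and 7.82, 6.98 and 6.79, and 5.64 and 5.46 in the same order. In both genes, as in Hoxa9, the delFG1 arrays lay below the full-length arrays and above the empty-vector arrays. Hoxa3 (-0.52) and Hoxa10 (-0.50) had smaller differences, again with no overlap of their arrays.

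At the other end of the cluster's range, Hoxa4, Hoxa11 and Hoxa13 differed by -0.01, 0.05 and 0.04. The signs of these 3 were not stable: Hoxa4 turned positive with median-centred and with quantile-normalised arrays. Over the 10 Hoxa genes measured of 11 listed, 7 had delFG1 arrays wholly below the full-length arrays, where 12.4% of all probe sets did, and 7 had an unadjusted limma p under 0.05 in that direction, where 2.17% of all did. The median difference was -0.51, against 0.00 over all genes, -0.38 in number 1 and -0.61 in number 2.

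**Figure D2:**
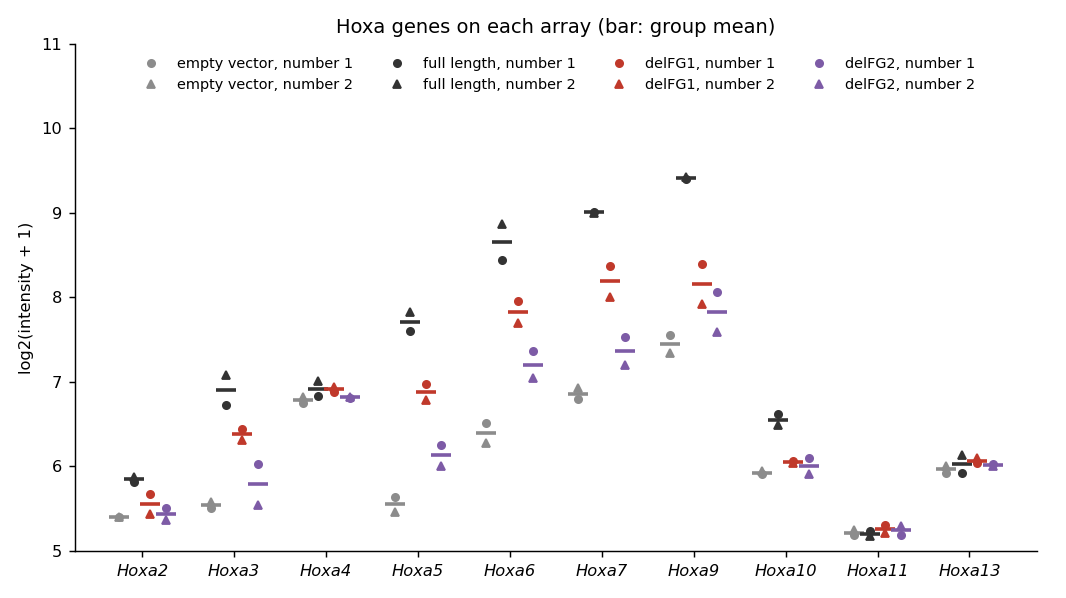
Points are the log2(intensity + 1) values of the 10 measured Hoxa genes on each array, circles for number 1 and triangles for number 2, with a bar at each group's mean of 2 arrays. For Hoxa3, Hoxa5, Hoxa6, Hoxa7 and Hoxa9 the delFG1 arrays sit between the full-length and the empty-vector arrays, and Hoxa4, Hoxa11 and Hoxa13 are at similar levels in all groups.

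Outside the Hoxa cluster 1 of 27 measured Hox genes passed, where 0.078% of all probe sets did. Hoxb5 read 5.88 and 5.92 on the full-length arrays and 5.22 and 5.35 on the delFG1 arrays, near the 5.08 and 5.22 of the empty vector. Its difference was -0.62 (SE 0.07), a level 1.53-fold lower (limma adjusted p = 0.009). It was not called without the block (limma adjusted p = 0.111, range 0.00607 to 0.224), nor without the full-length array numbered 1 (-0.58) or 2 (-0.65) or the delFG1 array numbered 1 (-0.60). Hoxc6 had a difference of -0.60 just outside the threshold (limma adjusted p = 0.0664), and Hoxc5 one of -0.55. The median over these 27 genes was -0.05. At an unadjusted limma p under 0.05, 5 of them were lower and 1 higher, where 2.17% of all probe sets were lower. The delFG1 arrays lay wholly below the full-length arrays in 8 and wholly above in 3, where 12.4% of all probe sets lay wholly below.

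Promoters are shown for genes called here by limma, to set their sequence beside the differences. RefSeq sequence of assembly GRCm38.p6 was found for 12 of the 17 called genes, with 15 promoters. The 250 bases before the start of Hoxa9 lie at chr6:52227371-52227620 on the minus strand, and those of Meis1 at chr11:19018970-19019219 on the minus strand. The sequences read 5′ to 3′ and capitals mark a motif match, of which these have none.
Hoxa9: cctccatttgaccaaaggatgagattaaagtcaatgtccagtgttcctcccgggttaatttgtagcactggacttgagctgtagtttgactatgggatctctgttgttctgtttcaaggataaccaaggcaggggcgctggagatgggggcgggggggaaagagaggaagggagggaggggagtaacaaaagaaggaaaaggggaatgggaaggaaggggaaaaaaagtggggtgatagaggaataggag
Meis1: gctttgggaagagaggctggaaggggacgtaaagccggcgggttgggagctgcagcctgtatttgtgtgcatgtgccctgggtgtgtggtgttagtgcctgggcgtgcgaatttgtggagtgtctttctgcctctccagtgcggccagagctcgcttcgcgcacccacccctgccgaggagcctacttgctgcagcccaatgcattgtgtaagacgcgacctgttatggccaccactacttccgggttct
The letters of 3 motifs of HOX and TALE proteins were searched on both strands of the promoters. They were TGATTTA (PBX-HOX), found in 2.61% of all 32851 promoters, TGACAG (MEIS), found in 15.9%, and TTTACGA (HOXA9), found in 0.478%. None of the 15 promoters held them, which says only that these letters are not in these windows. Eya1, Pbx3, Hoxb5, Gm5662 and Tox had no entry.

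Mef2c, a MADS-box transcription factor of myeloid and lymphoid progenitors, read 9.44 and 9.36 on the full-length arrays and 8.74 and 8.48 on the delFG1 arrays. The groups did not overlap, and the delFG1 array numbered 2 lay below the higher empty-vector value (8.55 and 8.09). The difference was -0.79 (SE 0.11, 95% interval -1.02 to -0.56), a level 1.73-fold lower (limma adjusted p = 0.0216). The call was lost without the block (limma adjusted p = 1.0, range 0.000676 to 1.0). It was also lost in every fit that left out a full-length, delFG1 or delFG2 array, with differences from -0.94 to -0.64, both from leaving out a full-length array.

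The other MEF2 factors had small differences: Mef2a differed by 0.10 and Mef2d by -0.02, and Mef2c was the only called gene of 7 measured in the list with the class IIa histone deacetylases. Of 24 measured regulators of leukaemia self-renewal none passed, and 4 had an unadjusted limma p under 0.05, all lower. Over all probe sets 0.078% passed, and 2.17% were lower at that unadjusted p. The list's median difference was -0.02, with 14 members lower and 10 higher. Among them Mecom, a zinc finger factor of stem cells, differed by -0.33 in 1 probe set and 0.01 in its other. Mycn, Cdk6 and Flt3 differed by -0.03, 0.12 and -0.30. Of 20 measured stem and progenitor genes none passed, with Cd34 at -0.25 and Kit at 0.08. Their median difference was 0.04. At an unadjusted limma p under 0.05, 4 of them were lower and 1 higher, where 2.17% of all probe sets were lower. The delFG1 arrays lay wholly below the full-length arrays in 4 and wholly above in 2, where 12.4% of all probe sets lay wholly below.

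Calcrl, the receptor for adrenomedullin and calcitonin gene-related peptide, read 9.05 and 8.92 on the full-length arrays, 8.89 and 8.72 on the empty-vector arrays and 7.88 and 7.95 on the delFG1 arrays. The delFG1 arrays were the lowest of these groups, and the full-length arrays lay slightly above the empty-vector arrays. The difference was -1.07 (SE 0.11, 95% interval -1.32 to -0.82), a level 2.10-fold lower (limma adjusted p = 0.00563). The call was lost without the block (limma adjusted p = 0.0848, range 0.000226 to 0.292) and without the full-length array numbered 1 (-0.98) or 2 (-1.16) or the delFG1 array numbered 1 (-1.03).

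Against the empty vector Calcrl had no limma call with the full-length fusion (0.18, adjusted p = 0.483), and it was lower with delFG1 (-0.89, adjusted p = 0.000926, and 0.0576 without the block). The accessory proteins that set the receptor's ligand, Ramp1, Ramp2 and Ramp3, differed between delFG1 and full length by 0.04, 0.08 and -0.17. Calcrl was the only called gene of 8 measured in its list. Its promoter, at chr2:84425267-84425516 on the minus strand, held no match to the 3 motifs.
Calcrl: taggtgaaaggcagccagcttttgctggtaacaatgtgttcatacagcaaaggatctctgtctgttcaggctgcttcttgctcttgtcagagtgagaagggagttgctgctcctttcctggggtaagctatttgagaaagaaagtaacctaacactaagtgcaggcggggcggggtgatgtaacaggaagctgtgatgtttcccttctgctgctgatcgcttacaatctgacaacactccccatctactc

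Other signalling genes fell less. Igfbp7, a secreted binding protein of insulin-like growth factors, read 9.60 and 9.62 on the full-length arrays and 8.72 and 9.06 on the delFG1 arrays, with no overlap. Its difference was -0.71 (SE 0.09), a level 1.64-fold lower (limma adjusted p = 0.0197, 0.716 without the block, range 0.00305 to 0.773). It was the only called gene of 14 measured in the insulin-like growth factor list.

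Rasgrp3, an exchange factor that activates Ras and Rap proteins, read 6.50 and 6.85 on the full-length arrays and 5.78 and 6.21 on the delFG1 arrays. The arrays numbered 2 were higher in both groups, and the groups did not overlap. The difference was -0.68 (SE 0.09), a level 1.60-fold lower (limma adjusted p = 0.0261, 1.0 without the block, range 0.0125 to 1.0). Rasgrp1, a relative, had a difference of -0.31, and Spry1, a feedback inhibitor of receptor tyrosine kinase signalling, one of 0.35. Neither passed (limma adjusted p = 0.862 and 0.795), and Rasgrp3 alone was called among 18 measured genes of its list.

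Epha3, a receptor tyrosine kinase of the Eph family, read 6.05 and 5.83 on the full-length arrays and 5.26 and 5.37 on the delFG1 arrays. The delFG1 values were close to the empty-vector values of 5.26 and 5.20. The difference was -0.63 (SE 0.09), a level 1.55-fold lower (limma adjusted p = 0.034, 0.222 without the block, range 0.0186 to 0.720). It was 1 of 21 measured Eph receptors and ephrins, with no other called. The predicted gene Gm5662 read 5.08 and 5.28 against 4.56 and 4.55, a difference of -0.62 (SE 0.07, limma adjusted p = 0.00922, 0.0836 without the block, range 0.00276 to 0.202).

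The calls of these 4 genes were lost in some fits that left out 1 array, while the differences kept their sign. Leaving out a delFG2 array did not change the differences themselves. Igfbp7 and Epha3 were not called when any full-length or delFG2 array, or the delFG1 array numbered 1, was left out. Their differences were then -0.81 to -0.59 for Igfbp7 and -0.76 to -0.49 for Epha3. Rasgrp3 lost its call without any full-length, delFG1 or delFG2 array (-0.74 to -0.62), and Gm5662 without the full-length array numbered 2 (-0.48).

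**Figure D3:**
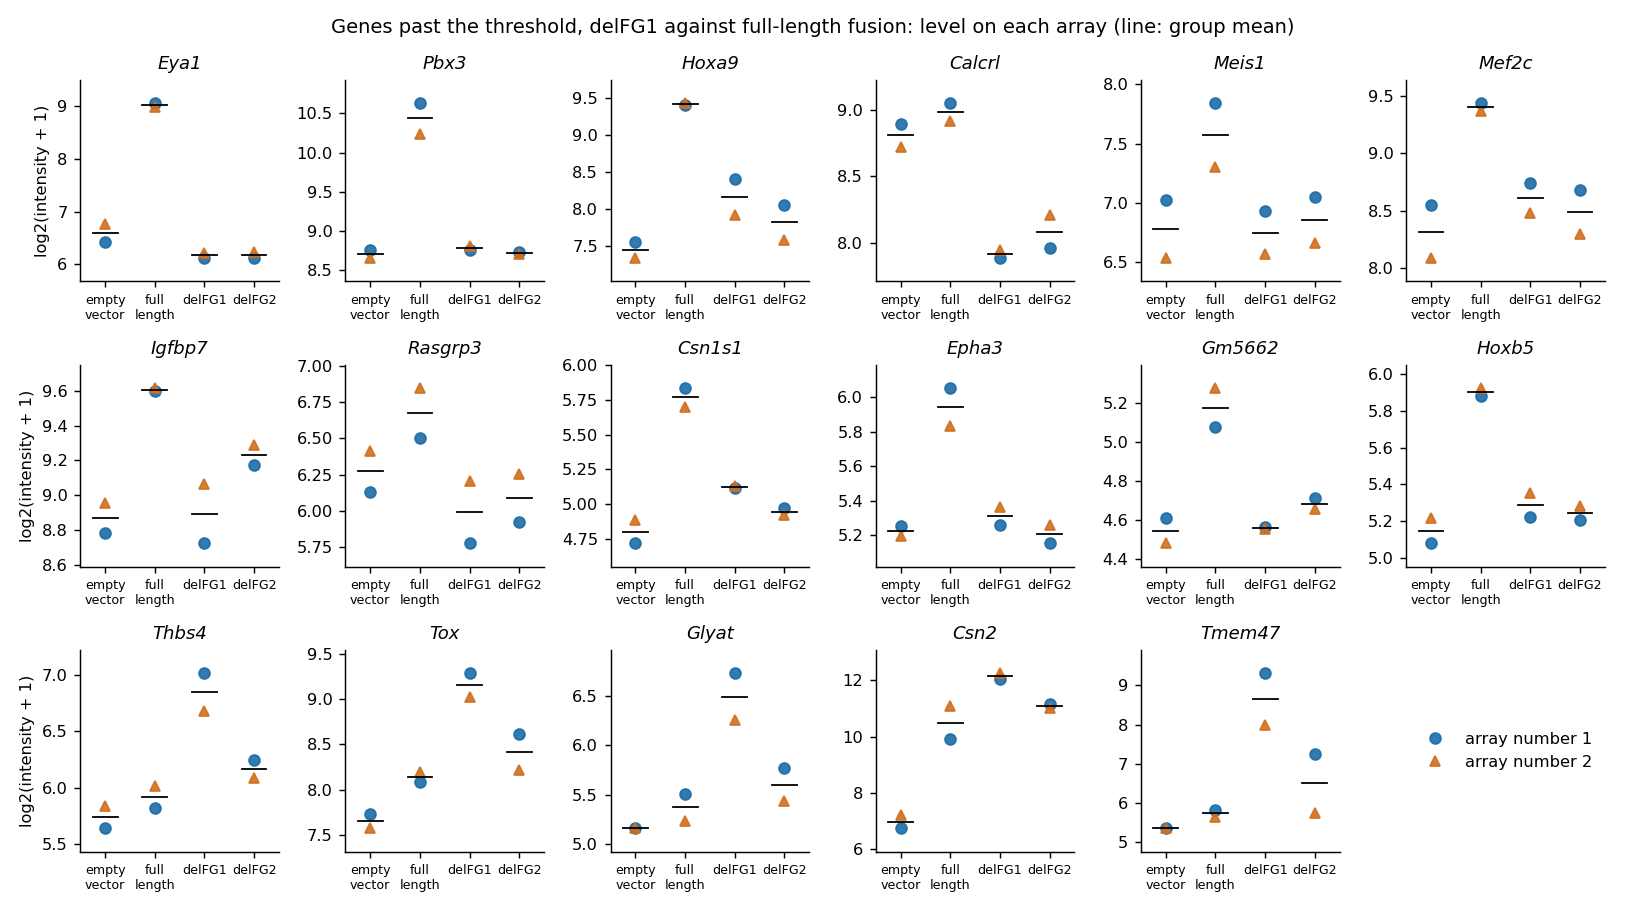
Points are the log2(intensity + 1) values of the 17 called genes on the 8 arrays, by group and array number. Eya1 and Pbx3 are high on the full-length arrays alone, Calcrl is low with both mutants, and Tmem47 is highest on the delFG1 array numbered 1, at 9.31.

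Both directions occurred within the casein genes, which encode milk proteins, lie in a cluster and respond to the transcription factor STAT5. Csn2, the beta-casein gene, read 9.91 and 11.06 on the full-length arrays and 12.03 and 12.24 on the delFG1 arrays. All 4 were well above the empty-vector values of 6.74 and 7.22, and the groups did not overlap. The difference was 1.64 (SE 0.21, 95% interval 1.17 to 2.12), a level 3.13-fold higher (limma adjusted p = 0.0197). The call was lost without the block (limma adjusted p = 0.803, range 0.00112 to 0.803), without the intensity trend (0.250), with robust eBayes (0.605) and over all deposited probe sets (0.0678). It was also lost without the full-length array numbered 1 (difference 1.16) or the delFG1 array numbered 1 (1.50).

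Csn1s1, the alpha-S1-casein gene, went the other way. It read 5.84 and 5.70 on the full-length arrays, 5.12 and 5.13 on the delFG1 arrays and 4.72 and 4.88 on the empty-vector arrays. The groups were in that order with no overlap. Its signal was low: the full-length mean had a median of 6.75 over all tested probe sets. A filter on mean log2 intensity of at least 6 left Csn1s1 out of the fit. The difference was -0.65 (SE 0.08), a level 1.56-fold lower (limma adjusted p = 0.0099). It was not called without the block (limma adjusted p = 0.0836, range 0.00339 to 0.313), nor without the full-length array numbered 1 (-0.56) or 2 (-0.73), the delFG1 array numbered 1 (-0.64) or the delFG2 array numbered 2 (-0.65).

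Of 9 measured genes in the list of caseins and other milk proteins no other was called. Csn1s2a had a difference of 0.46 (limma adjusted p = 0.505), from 4.80 and 4.81 to 5.57 and 4.97, and Csn3 and Wap differed by 0.01 and -0.02. The promoters of both called caseins are shown with the STAT5-type motif TTCNNNGAA in capitals, a search added after their values were seen. Csn1s1 lies at chr5:87665958-87666207 on the plus strand, with its match 100 to 92 bases before the start. Csn2 lies at chr5:87699426-87699675 on the minus strand, with its match 93 to 85 bases before the start.
Csn1s1: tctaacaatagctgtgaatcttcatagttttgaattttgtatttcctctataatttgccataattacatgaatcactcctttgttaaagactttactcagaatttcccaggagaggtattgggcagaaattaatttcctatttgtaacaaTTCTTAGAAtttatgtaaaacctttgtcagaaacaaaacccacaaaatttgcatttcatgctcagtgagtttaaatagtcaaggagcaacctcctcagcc
Csn2: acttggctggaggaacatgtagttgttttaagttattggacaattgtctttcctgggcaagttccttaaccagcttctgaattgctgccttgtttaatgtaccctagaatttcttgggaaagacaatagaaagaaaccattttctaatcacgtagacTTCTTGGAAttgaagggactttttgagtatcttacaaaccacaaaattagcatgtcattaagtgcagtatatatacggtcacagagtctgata
That motif was found in 7.02% of all promoters of this length and in 4 of the 15 promoters of the 12 called genes with an entry. These 4 belonged to Csn1s1, Csn2, Epha3 and Mef2c. Since the motif was picked for the caseins after their values were seen, these shares do not measure an enrichment, and none was tested. The motif stood in a casein that rose and in one that fell.

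The largest rise was in Tmem47, a transmembrane protein of cell junctions. It read 5.82 and 5.63 on the full-length arrays and 9.31 and 8.0 on the delFG1 arrays. The empty-vector arrays, at 5.34 and 5.36, were near the full-length arrays, and both delFG1 arrays were far above them. The difference was 2.93 (SE 0.30, 95% interval 2.26 to 3.60), a level 7.62-fold higher (limma adjusted p = 0.00538). The call was lost without the block (limma adjusted p = 0.425, range 0.000179 to 0.502), without the intensity trend (0.0879), with robust eBayes (0.502) and without the full-length array numbered 1 (difference 2.56) or 2 (3.30).

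Tox, a nuclear HMG-box factor known from lymphoid development, read 8.09 and 8.19 on the full-length arrays and 9.28 and 9.02 on the delFG1 arrays, with no overlap. Its difference was 1.01 (SE 0.12), a level 2.02-fold higher (limma adjusted p = 0.0099, 0.311 without the block, range 0.000676 to 0.311). It was not called without the full-length (0.82) or delFG1 (0.96) array numbered 1. Its relatives Tox2, Tox3 and Tox4 differed by -0.05, 0.07 and 0.11.

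Glyat, a mitochondrial glycine acyltransferase, read 5.51 and 5.24 on the full-length arrays and 6.73 and 6.26 on the delFG1 arrays. Its difference was 1.12 (SE 0.11), a level 2.17-fold higher (limma adjusted p = 0.00374, 0.277 without the block, range 0.000307 to 0.277). With a full-length array left out it was not called, at 1.12 for either number. Thbs4, an extracellular matrix glycoprotein, read 5.82 and 6.01 against 7.01 and 6.68, a difference of 0.93 (SE 0.13, limma adjusted p = 0.034, 0.277 without the block, range 0.00858 to 1.0).

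Thbs4 lost its call with more arrays than the other 4 higher genes. It was not called when a full-length array was left out (0.78 without number 1, 1.07 without number 2), either delFG2 array (0.93) or the delFG1 array numbered 1 (0.72). It was the only called gene of 15 measured thrombospondins and adhesion molecules.

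The genes next in size on the higher side did not pass. Chil4, a chitinase-like secreted lectin, read 5.33 and 5.87 on the full-length arrays and 8.87 and 7.18 on the delFG1 arrays, a difference of 2.42 (limma adjusted p = 0.0502). Its relative Chil3, at -0.37, had the other sign. Igf2r, the receptor that clears insulin-like growth factor 2, Vcam1, an adhesion molecule, and Igf1 had differences of 1.22, 1.16 and 1.13. Azgp1, Gpx8, Gstt1, Nxpe2, Prxl2a and Fst lay between 0.74 and 1.06. On the lower side Crisp3 (-0.95), P2rx3, an ATP-gated ion channel (-0.93), and Il2ra, the alpha chain of the interleukin-2 receptor (-0.90), were next in size and did not pass. The second probe set of P2rx3 differed by -0.14.

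The higher genes differed between the array numbers in size. All 5 had the larger difference in the arrays numbered 1: Tmem47 3.49 and 2.37, Csn2 2.11 and 1.18, Glyat 1.22 and 1.02, Tox 1.20 and 0.83, and Thbs4 1.19 and 0.67. So did all 10 genes next in size, among them Chil4 (3.54 and 1.31). Of the 12 lower genes 9 had the larger difference in number 1 and 3 in number 2, among the latter Hoxa9 (-1.01 and -1.50). Larger differences in number 1 were not particular to these genes. Over all probe sets the median absolute difference was 0.078 in number 1 and 0.060 in number 2, and its 99th percentile 0.490 and 0.339. With 1 array of each group per number, no test of these gaps was run. The threshold divided genes whose adjusted p-values were near each other, though their differences were not alike. Just inside it lay Epha3 and Thbs4 (limma adjusted p = 0.034 for both). Just outside were Hoxa5 and Chil4 (0.0502 for both) and Btla, a lymphocyte inhibitory receptor (-0.71, 0.0549).

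The values against the empty vector place the called genes relative to cells without the fusion. These contrasts share their full-length, delFG1 and empty-vector arrays with each other and with the comparison that chose the genes, so the values are given side by side and nothing is read from their agreement. Relative to the empty vector, limma called 2.18% of all probe sets higher and 4.43% lower for the full-length fusion, and 1.94% higher and 4.18% lower for delFG1.

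Among the lower genes, Eya1 was 2.43 above the empty vector with the full-length fusion and -0.42 from it with delFG1, and Pbx3 1.74 and 0.08. Meis1 was at 0.80 and -0.03, Mef2c at 1.08 and 0.30, and Hoxa9 at 1.97 and 0.72. The limma call of Hoxa9 for delFG1 against the empty vector (adjusted p = 0.00661) was lost without the block (0.263). Among the uncalled Hoxa genes the delFG1 values remained well above 0: Hoxa5 had 2.16 and 1.33, Hoxa6 2.26 and 1.43, and Hoxa7 2.15 and 1.33, each called in both contrasts. Hoxa10 was at 0.63 and 0.12, the latter without a call.

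Among the higher genes, Csn2 was 3.51 above the empty vector with the full-length fusion and 5.15 with delFG1. Tox was at 0.49 and 1.50. For Tmem47 (0.38 and 3.31), Glyat (0.22 and 1.34) and Thbs4 (0.18 and 1.11) the full-length fusion itself gave no call.

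**Figure D4:**
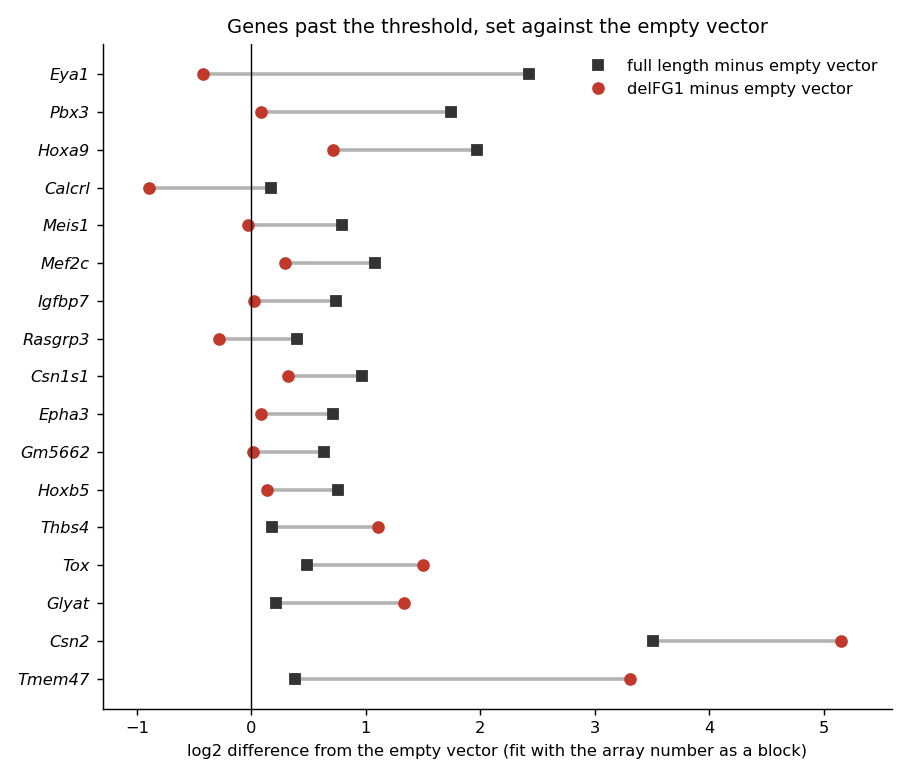
For each of the 17 called genes the black square is full length minus empty vector and the red circle delFG1 minus empty vector, both log2 differences from the fit with the block. The choice of the 12 lower genes puts their circles to the left of the squares; the circle of Pbx3 lies near 0 at 0.08, and that of Tmem47 at 3.31.

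The other mutant, delFG2, was set against the same full-length arrays, where limma called 0.298% of probe sets higher and 0.17% lower. Since both mutants share those arrays, their differences are given side by side and nothing is read from their agreement. Eya1 differed from the full-length fusion by -2.85 with delFG1 and -2.84 with delFG2, Pbx3 by -1.66 and -1.73, and Calcrl by -1.07 and -0.90. Hoxa9 differed by -1.25 and -1.60, and Igfbp7 by -0.71 and -0.37. Of the higher genes, Tmem47 differed by 2.93 with delFG1 and 0.77 with delFG2, Csn2 by 1.64 and 0.59, Tox by 1.01 and 0.28, Thbs4 by 0.93 and 0.25, and Glyat by 1.12 and 0.23. Differences between the 2 mutants were not tested here.

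Marker genes of blood cell types gave no call in any of 10 lists. Over all probe sets 0.078% were called, so the lack of calls does not set these lists apart. Elane, a protease, and Mpo, a peroxidase, both of the granules of immature neutrophils, read 13.14 to 13.27 and 13.00 to 13.10 on the 4 arrays, differing by 0.05 and -0.02. The median over 19 measured neutrophil genes was 0.02 and over 18 monocyte and macrophage genes -0.02, with Csf1r, the macrophage growth factor receptor, at 0.02. The B lymphoid, T and NK lymphoid, eosinophil, erythroid and megakaryocyte lists had medians of -0.00, -0.05, 0.01, 0.05 and -0.12. In the same order, 0 of 15, 5 of 15, 0 of 7, 1 of 11 and 3 of 8 genes had delFG1 arrays wholly below the full-length arrays. Wholly above were 2, 0, 1, 2 and 0. Over all 21789 probe sets 2698 (12.4%) lay wholly below and 2892 wholly above.

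Of 16 measured mast cell and basophil genes, 5 had an unadjusted limma p under 0.05, all lower, and none passed after adjustment. Over all probe sets 2.17% were lower at that p. By sign 10 of the 16 were lower and 6 higher, the highest at 0.16. In 5 of the 16 the delFG1 arrays lay wholly below the full-length arrays and in 1 wholly above, where 12.4% of all probe sets lay wholly below. The list's median difference was -0.04. Hdc, which makes histamine, read 10.62 and 10.91 on the full-length arrays and 9.89 and 10.59 on the delFG1 arrays (-0.53, limma adjusted p = 0.075). Mcpt8 and Prss34, basophil proteases, differed by -0.38 and -0.33, and Ms4a2, a chain of the high-affinity IgE receptor, by -0.22. The summed intensity of the list was 14810 and 18142 on the full-length arrays and 12108 and 15288 on the delFG1 arrays, lower with delFG1 within each number and overlapping between groups. Fewer cells of a type and less RNA per cell cannot be told apart in bulk RNA, and the part of this list in the other differences was not tested.

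Genes of dendritic cells and antigen presentation had the lowest median of the 10 lists, -0.21 over 15 measured genes, of which 12 were lower and 3 higher. An unadjusted limma p under 0.05 was found for 5, all lower, where 2.17% of all probe sets were lower at that p. In 2 of the 15 the delFG1 arrays lay wholly below the full-length arrays, where 12.4% of all probe sets did. Cd74, the invariant chain of MHC class II, differed by -0.44, the class II chains H2-Aa and H2-Eb1 by -0.59 and -0.47, and Ccr7, the homing receptor of mature dendritic cells, by -0.88. Ccr7 read 8.58 and 7.10 on the full-length arrays and 7.07 and 6.85 on the delFG1 arrays, so the full-length array numbered 1 stood out. Summed intensity was 8851 and 5921 on the full-length arrays and 6526 and 4944 on the delFG1 arrays, and none of these genes passed the adjusted threshold. The part of this list in the other differences was not tested. In the T and NK list Thy1 had a difference of -0.65 (limma adjusted p = 0.285).

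Stroma and endothelium markers, which include extracellular matrix genes, had a median of 0.04 over 16 genes, with Col1a1 at -0.04. Their summed intensity was 8141 and 7020 on the full-length arrays, 8297 and 7642 on the delFG1 arrays, and 9879 and 9803 on the empty-vector arrays.

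**Figure D5:**
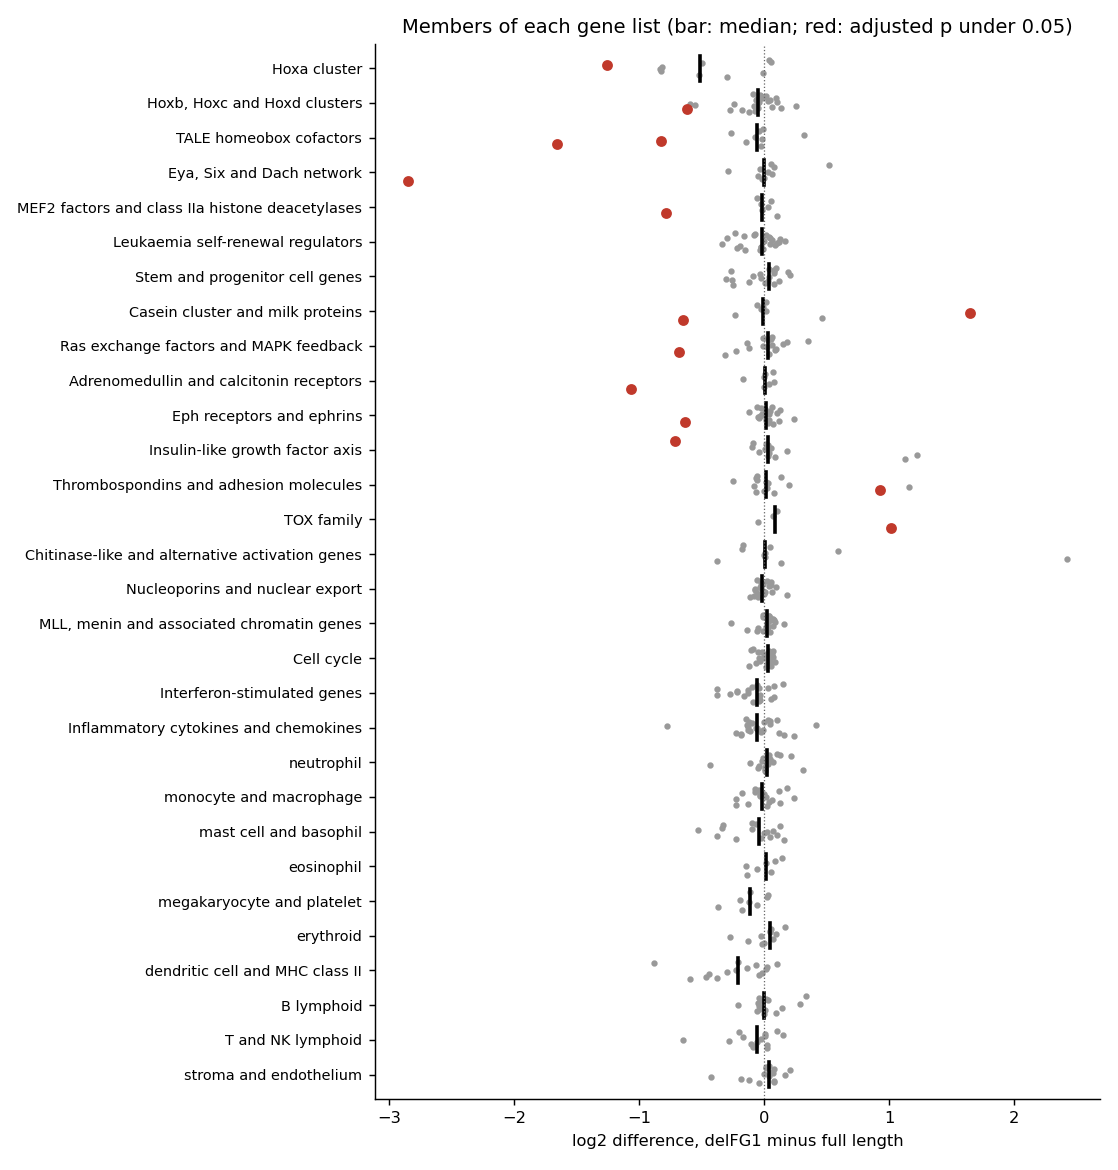
Each row is a gene list, with a point for the log2 difference of every measured member and a mark at the list's median; called members are coloured. The Hoxa cluster has the lowest median, -0.51, and the medians of the other lists lie between -0.21 and 0.09.

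The machinery around the fusion showed no call. Nup98 itself read 11.11 and 10.99 on the full-length arrays and 11.04 and 10.96 on the delFG1 arrays, a difference of -0.05, and no probe set is known here to lie in the deleted part, so it does not check the deletion. Over 22 measured nucleoporins and nuclear export genes the median was -0.01, with the export receptor Xpo1 at -0.08. Among 23 genes of MLL, menin and associated chromatin proteins it was 0.02, with Kmt2a, which encodes MLL, at 0.05 and Men1, which encodes menin, at -0.06. Over 30 cell cycle genes the median was 0.03, over 21 interferon-stimulated genes -0.06 and over 25 inflammatory cytokines and chemokines -0.06. In these 5 lists 0 genes passed limma's threshold, where 0.078% of all probe sets did. An unadjusted limma p under 0.05 was found for 6, all lower, where 2.17% of all probe sets were lower at that p. Whether these lists differ from that share was not tested. Without the block limma called no gene beyond Eya1 and Pbx3. The inflammatory chemokine Ccl22 had the largest difference among those named, -0.77, with 9.19 and 7.50 on the full-length arrays and 8.07 and 7.07 on the delFG1 arrays.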

How the data were processed

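GeneChip arrays measured total RNA of 8 samples, 2 in each of 4 groups. Per the labels' protocols, RNA was column-purified and the DNA made from it was labelled for whole-transcript arrays. The intensity values, on a linear scale, are those of a table that the authors deposited. Not given in the sources used here is how they were background-corrected, summarised and normalised; sorted values of the arrays lay within 0.0717 (log2) of their mean. Values were analysed as log2(intensity + 1) with no further scaling. No column of another sample was present (0 columns).

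Of 28853 probe sets, 21789 carried 1 symbol in the platform annotation and were tested. Limma 3.58.1 in R 4.3.3 (lmFit, eBayes with an intensity trend) fitted the 4 group means and the array number as a block to all 8 arrays, with 3 residual and 7.78 prior degrees of freedom. P-values were two-sided, with Benjamini-Hochberg adjustment over all tested probe sets and a threshold of 0.05. The number was a block because the comparison is defined over same-numbered arrays. After subtraction of group means, arrays sharing a number correlated over genes in each of the 6 pairs of groups (r from 0.401 to 0.640, highest for full length with delFG1). The pairing thus rests on label numbers and on this check; their meaning is not stated. The fit without the block had 4 residual and 4.62 prior degrees of freedom.

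Named genes were every called probe set, the Hoxa genes and a set of blood cell genes such as Mecom, Kit and Mpo. Members of 30 gene lists with the smallest p were named too. Places up to 15 a direction went, by size, to differences whose arrays did not overlap and whose unadjusted limma p was under 0.01. Predicted, olfactory, vomeronasal and small RNA genes were skipped for those places. Btla was named after its values were seen. A gene with several probe sets is named by the brightest. The comparison, members and lists were chosen with earlier results of these data known. The fit was checked on simulated data. No genome build is stated for the array, so gene positions come from RefSeq (GRCm38.p6). The alternatives were no block, only the 4 arrays, pseudocounts of 0 and 32, median centring, quantile normalisation, no trend, robust eBayes, a filter on mean log2 intensity of at least 6, all probe sets, 1 probe set a gene, and leaving out each array.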

Additional observations from a re-analysis of the deposited data

How the results depend on the processing

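Eya1 and Pbx3 were called under all 19 alternatives run. Without the replicate block, limma called 0 genes higher and 2 lower; the same-numbered arrays are treated as pairs, and the other calls rest on that pairing. With only the 4 full-length and delFG1 arrays, which leave 1 residual degree of freedom, it called 54 higher and 67 lower. Without the intensity trend it called 1 higher and 6 lower, with robust eBayes 3 higher, over all deposited probe sets 3 higher, and after median centring 10 higher. Leaving out 1 array at a time gave 0 to 25 higher and 4 to 28 lower. The cause of these shifts was not tested. Signs that turned belonged to uncalled genes near 0. Hoxa4 became 0.0090 with median centring and 0.027 with quantile normalisation, Mycn 0.0038 with the latter, and Eya3 0.012 with median centring. Over the arrays left out in turn the lowest and highest values of these genes were -0.075 and 0.060 for Hoxa4, -0.010 and 0.12 for Hoxa11, -0.043 and 0.12 for Hoxa13, -0.10 and 0.039 for Mycn, -0.027 and 0.18 for Kit, -0.068 and 0.031 for Mpo, and -0.13 and 0.18 for Csf1r. They were -0.16 and 0.069 for Col1a1, -0.079 and 0.041 for Eya2, -0.035 and 0.026 for Eya3, -0.11 and 0.21 for Kmt2a, -0.11 and 0.072 for Mef2d, -0.10 and 0.068 for Meis2 and -0.13 and 0.014 for Men1. They were -0.083 and 0.036 for Pbx2, -0.38 and 0.040 for Ramp3, -0.079 and 0.22 for Tox3, and -0.061 and 0.017 for Wap. Over the 88 genes given these alternatives, 1443 values kept their direction and side of the threshold, 84 fell out of the calls and 92, of 29 genes, came into them; Hoxa5 and Chil4 were among these 29. There were 2 arrays a group, and the median SE of a difference was 0.09. The deposited values carry no detection calls, and 5 of the 12 lower and 3 of the 5 higher genes had full-length signals under the median of all probe sets. The filter on mean log2 intensity of at least 6 left out the lower genes Csn1s1, Epha3, Gm5662 and Hoxb5 and the higher gene Glyat.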
